A study of Mus musculus with 39 samples.

Results

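Immediate early response genes were followed in the kidney, liver, lung and skin of perforin-deficient mice. The 10 genes were chosen by name, as well-known members of this class: Fos, Fosb, Jun, Junb, Egr1, Nr4a1, Ier2, Atf3, Dusp1 and Btg2. Each was found as 1 row of the table of kidney, liver and lung, which holds 24537 genes, and as 1 row of the skin table, which holds 52508. All mice were C57BL/6 males that lacked perforin (Prf1-/-), the pore-forming protein of cytotoxic lymphocytes, so the controls carried this deletion too. Young mice were 3 months old and untreated. Old mice were 20 months old and had been given either ABT-737, an inhibitor of anti-apoptotic BCL-2 family proteins, at 25 mg/kg or a vehicle solution. Dosing began at 18 months and was given monthly, on 2 consecutive days, for 2 months. There were 4 young, 3 vehicle and 3 ABT-737 libraries for each tissue, except for 3 young libraries of skin, and the old mice carry the replicate numbers 3, 4 and 5. No old untreated group and no young treated group was among the 39 libraries.

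Immediate early genes are transcribed within minutes of a stimulus, without the need for new protein synthesis, and most of their transcripts are short-lived. Growth factors, calcium, stress kinases and tissue handling all induce them, through transcription factors that are already present in the cell. Fos, Fosb, Jun and Junb encode subunits of the AP-1 transcription factor. Egr1 encodes a zinc finger factor, Nr4a1 an orphan nuclear receptor, and Atf3 a stress-induced factor of the ATF/CREB family. Ier2 encodes a small nuclear protein. Dusp1, a phosphatase that inactivates MAP kinases, and Btg2, an antiproliferative protein that promotes mRNA deadenylation, act as brakes on the response.

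Promoters of the class are shown because the levels of its members varied together between libraries of kidney, liver and skin, and less so of lung, as described further on. The part of the promoters in this was not tested. RefSeq promoters (build GRCm38.p6) of 8 genes were searched over the 250 bases before the transcription start, and those of Ier2 and Egr1 were not part of the search. The 5 letters TGACG, the core of the site that ATF/CREB factors bind, were found on either strand in 7 of these 8 promoters and in 17.8% of 32851 mouse promoters of the same length. The members' promoters were also richer in G and C, with 58.4% to 74.4% against a median of 52.4%, and the motif itself holds a CG. The whole site TGACGTCA, which contains TGACG on both strands, was present in the promoters of Dusp1 and Btg2 and in 1.55% of all. The AP-1 site TGANTCA was present in none of the 8 and in 6.75% of all, and the CArG box in none of the 8 and in 1.47% of all. A match is a description of letters in this window only, and a motif found in none of the 8 may still be present in Egr1 or Ier2. The following 4 promoters belong to the genes with a RefSeq promoter that varied most between ABT-737 libraries of the skin, and capitals mark each TGACG or, for the opposite strand, its complement. They lie at chr12:85473640-85473889, plus strand, chr7:19310046-19310295, minus strand, chr15:101266596-101266845, plus strand and chr1:191183334-191183583, minus strand, each written 5′ to 3′ towards the gene.
Fos: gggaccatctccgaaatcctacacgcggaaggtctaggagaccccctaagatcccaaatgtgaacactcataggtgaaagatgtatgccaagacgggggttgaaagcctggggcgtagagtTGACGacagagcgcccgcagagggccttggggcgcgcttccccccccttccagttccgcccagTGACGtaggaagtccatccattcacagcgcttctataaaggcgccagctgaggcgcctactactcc
Fosb: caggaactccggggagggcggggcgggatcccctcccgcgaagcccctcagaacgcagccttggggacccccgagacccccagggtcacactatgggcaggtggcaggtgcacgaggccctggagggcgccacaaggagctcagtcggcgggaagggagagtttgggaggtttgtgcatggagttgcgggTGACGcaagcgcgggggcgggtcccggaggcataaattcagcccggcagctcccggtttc
Nr4a1: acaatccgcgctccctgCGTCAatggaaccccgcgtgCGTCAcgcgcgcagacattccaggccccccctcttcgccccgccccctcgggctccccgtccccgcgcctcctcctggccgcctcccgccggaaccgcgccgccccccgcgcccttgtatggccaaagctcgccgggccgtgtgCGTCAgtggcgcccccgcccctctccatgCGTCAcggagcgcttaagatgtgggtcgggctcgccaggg
Atf3: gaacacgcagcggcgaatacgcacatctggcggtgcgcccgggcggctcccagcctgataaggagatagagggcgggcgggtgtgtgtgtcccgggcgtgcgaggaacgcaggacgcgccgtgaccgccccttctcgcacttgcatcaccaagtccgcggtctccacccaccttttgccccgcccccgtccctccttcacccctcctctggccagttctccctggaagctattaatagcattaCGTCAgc

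The Fos promoter held the motif 129 and 66 bases before the start, that of Fosb 60 bases before it, and that of Nr4a1 4 times. The promoters of Dusp1 (chr17:26508473-26508722, minus strand) and Btg2 (chr1:134079156-134079405, minus strand) are shown for the whole site, which began 143 and 166 bases before the start and stands in capitals.
Dusp1: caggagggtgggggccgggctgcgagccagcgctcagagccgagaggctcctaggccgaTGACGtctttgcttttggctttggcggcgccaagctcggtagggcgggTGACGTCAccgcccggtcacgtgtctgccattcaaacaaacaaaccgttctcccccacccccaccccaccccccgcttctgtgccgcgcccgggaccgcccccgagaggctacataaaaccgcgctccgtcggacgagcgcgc
Btg2: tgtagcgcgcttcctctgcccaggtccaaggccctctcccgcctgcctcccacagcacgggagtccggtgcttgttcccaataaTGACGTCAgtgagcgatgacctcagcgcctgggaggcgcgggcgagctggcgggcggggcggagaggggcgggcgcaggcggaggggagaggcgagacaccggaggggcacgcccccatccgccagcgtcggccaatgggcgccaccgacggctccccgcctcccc

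Levels are given as CPM, counts scaled to a fixed library total, after TMM scaling within a tissue. Total counts per library were 1431814 to 3513311 in kidney, 223957 to 891116 in liver, 1046508 to 2600092 in lung and 1493411 to 3842808 in skin. In liver 1 count was worth 1.17 to 4.36 CPM, against 0.276 to 0.684 CPM in kidney. Summed over fixed lists, kidney tubule markers reached 12477 to 15046 CPM in kidney, hepatocyte markers 52395 to 88501 CPM in liver, lung epithelium markers 29800 to 62462 CPM in lung and keratinocyte markers 12595 to 37197 CPM in skin. Some libraries stood apart. Liver vehicle replicate 3 was the shallowest, lung ABT-737 replicate 4 held 4979 CPM of adipocyte markers against 70.7 to 215 CPM in the other lung libraries, lung vehicle replicate 5 held 8101 CPM of leukocyte markers against at most 3836 CPM, and muscle markers ran from 9308 to 82830 CPM between skin libraries. In bulk tissue, fewer cells of a type and less RNA per cell cannot be told apart. Tissues were put whole into RNAlater after perfusion, and the time from death to that step was not given in the sources used here. The labels do not state that libraries with the same number in different tissues came from 1 mouse.

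Immediate early genes were on a common scale only within the young libraries of kidney, liver and lung, which were fitted together. In these mice the lung held more transcript of most members than the kidney or the liver. Of the 9 genes tested, 8 were higher in lung than in kidney and none was lower, at a background of 74.7% of 11867 genes called in either direction. Between liver and kidney 4 of 9 were called, all higher in liver, against 51.5% of all genes, and between lung and liver 6 of 9, all higher in lung, against 69.4%. In both comparisons with liver the members were thus called no more often than all genes. Fosb was too low to test, with 0 counts in every young liver, at most 2 in a young kidney and 3 to 6 in each young lung. A gene was called where edgeR's quasi-likelihood test gave a Benjamini-Hochberg adjusted p under 0.05, and that rule holds throughout.

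Nr4a1 showed the widest gap. It stood at 7.95 ± 3.26 CPM in kidney, 5.91 ± 5.44 CPM in liver and 90.2 ± 20.3 CPM in lung (SD, n = 4 each). All 4 lungs lay above every kidney and liver, and the log2 difference between lung and kidney was 3.45 ± 0.23 (SE, adjusted p = 3.59e-14 by edgeR). Fos was next, at 3.12 ± 1.12 CPM in kidney and 21.7 ± 10.1 CPM in lung, a log2 difference of 2.71 ± 0.31 (SE, edgeR adjusted p = 4.85e-09). In liver Fos had at most 1 count per library, so the lung was at least 3.05-fold higher, taking 3 counts in each liver library as the limit. Neither gene was called between liver and kidney.

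Jun was lowest in kidney at 44.7 ± 5.57 CPM, higher in liver at 71.5 ± 4.80 CPM and highest in lung at 249.6 ± 9.65 CPM (SD, n = 4 each). The 3 tissues did not overlap for Jun, and each of its 3 differences was called. Junb followed the same order, with 34.4 ± 3.29, 79.6 ± 23.4 and 116 ± 12.4 CPM, and its lung to liver difference was the smallest call (log2 0.53 ± 0.18, edgeR adjusted p = 0.00895), lost without young liver replicate 4 (log2 0.39, adjusted p = 0.0579). Dusp1, the MAP kinase phosphatase, had the same order again, with 56.7 ± 14.3, 181 ± 58.5 and 292 ± 74.2 CPM. Ier2 stood at 59.7 ± 10.9 CPM in liver and 56.2 ± 8.69 CPM in lung, a log2 difference of -0.09 ± 0.20 that was not called, and was lower in kidney, at 18.2 ± 3.57 CPM.

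Btg2 was at 18.0 ± 1.81 CPM in kidney, 17.1 ± 2.59 CPM in liver and 48.5 ± 22.1 CPM in lung. Atf3 rested on 0 to 17 counts per young library and was called only between lung and kidney (log2 1.42 ± 0.32, edgeR adjusted p = 0.000225). Egr1 was the exception among the tested genes. Its levels were 10.8 ± 1.84 CPM in kidney, 12.8 ± 3.43 CPM in liver and 12.98 ± 3.08 CPM in lung, and none of its 3 differences was called. Differences against liver depended on scaling. With total counts alone in place of TMM, the median of all genes moved from 0.33 to 1.10 (log2) between lung and liver, and Jun was no longer called between liver and kidney (log2 0.01, adjusted p = 0.972). The same scaling called Egr1 (log2 0.79), Ier2 (log2 0.69, against -0.09 with TMM) and Atf3 (log2 1.12) between lung and liver and Fos between liver and kidney (log2 -2.97).

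**Figure D1:**
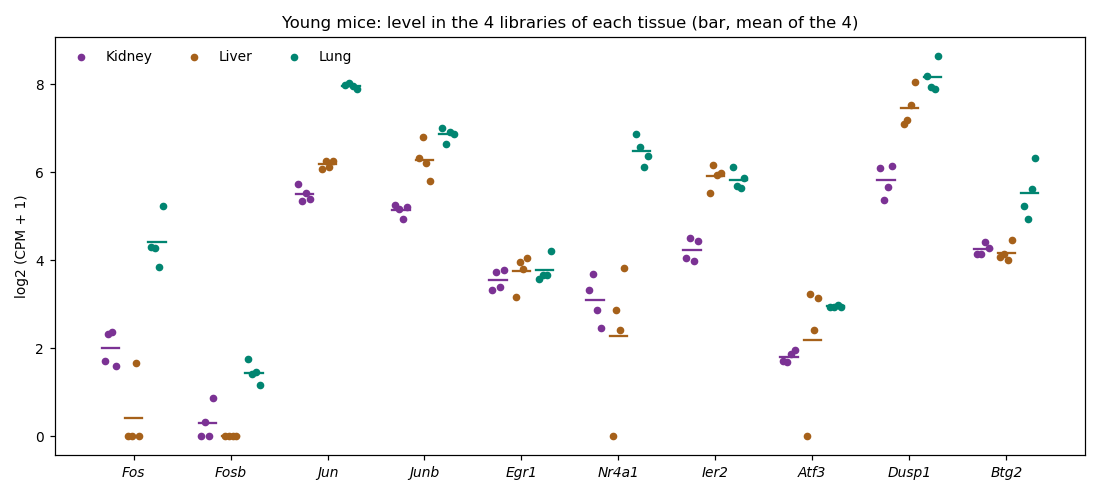
Level of each immediate early gene in the young libraries of kidney, liver and lung, as log2 (CPM + 1), with 1 point per library and a bar at the mean of the 4. Lung points of Nr4a1, Fos and Jun lie above all kidney and liver points, and the 3 tissues overlap for Egr1.

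Old vehicle-treated mice were compared with young mice to see the change with age, and ABT-737-treated mice with vehicle-treated mice to see the change with the drug. The filter on low counts was passed by all 10 genes in skin, 9 in lung, 8 in kidney and 6 in liver. Fosb and Atf3 were not tested in kidney, Fos, Fosb, Nr4a1 and Atf3 were not tested in liver, and Fosb was not tested in lung. Comparisons within a tissue share libraries, since vehicle and young mice each enter 2 of the 3.

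In liver the largest share of members differed between old vehicle-treated and young mice. Egr1, Btg2 and Junb were higher in the old livers and Dusp1 was lower, so 4 of the 6 tested genes were called, at a background of 22.6% of 5583 genes. Young livers held 3 to 7 counts of Egr1 and 6 to 8 of Btg2. These 2 genes thus passed the filter on low counts only through old livers, where they were high, which limits what the share of 4 in 6 can show. Egr1 was at 5.81, 10.4, 9.22 and 11.5 CPM in young livers and at 26.2, 94.8 and 56.5 CPM in vehicle livers. Every vehicle library lay above every young one. The log2 difference was 2.78 ± 0.56 (SE, edgeR adjusted p = 0.00237) and stayed called without any single library.

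Dusp1 moved the other way. It was at 98.7, 103, 131 and 194 CPM in young livers and at 4.36, 64.4 and 30.8 CPM in vehicle livers, again without overlap (log2 -1.73 ± 0.44, edgeR adjusted p = 0.0113). The lowest value was 1 count, in the shallow vehicle replicate 3, and the call held without that library. Btg2 was at 10.8 to 15.3 CPM in the 4 young livers and at 8.73, 73.7 and 29.5 CPM in vehicle livers. The groups overlapped through vehicle replicate 3, and the log2 difference of 1.80 ± 0.48 (edgeR adjusted p = 0.0137) was not called without vehicle replicate 4 (log2 0.91, adjusted p = 0.234).

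Junb was at 58.1, 79.0, 52.2 and 40.3 CPM in young livers and at 109, 158 and 83.5 CPM in vehicle livers. The log2 difference was 1.03 ± 0.29 (SE, edgeR adjusted p = 0.0194). It was not called without vehicle replicate 4 (adjusted p = 0.146), young replicate 3 (0.0612) or young replicate 4 (0.0711). Jun, with 20.5 to 105 CPM in the vehicle livers and 48.4 to 55.6 CPM in the young, was not called. Nor was Ier2, although its vehicle livers, at 55.2 to 63.2 CPM, lay above the young ones, at 32.9 to 50.7 CPM (log2 0.43 ± 0.25). Of the untested genes, Nr4a1 had 4, 17 and 10 counts in vehicle livers and 0, 3, 2 and 5 counts in young ones.

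After ABT-737 the livers kept a high Egr1 in all but 1 mouse. The 3 libraries stood at 79.3, 11.4 and 91.6 CPM, and replicate 4 lay within the range of young livers. Against young mice the log2 difference was 2.58 ± 0.61 (SE, edgeR adjusted p = 0.0162), the only call among 6 genes at a background of 8.4%, and it was lost without ABT-737 replicate 3 (adjusted p = 0.0614) or 5 (0.136). With ABT-737 and young livers fitted alone, Egr1 did not pass the filter on low counts. It entered this test through the vehicle livers, which limits what the share of 1 in 6 can show. Against vehicle the log2 difference of Egr1 was -0.20 ± 0.50.

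None of the 6 genes was called between ABT-737 and vehicle livers by edgeR or by DESeq2, at a background of 3.85%, with 3 genes at an unadjusted p under 0.05. These were Btg2, Dusp1 and Junb. Btg2 stood at 23.8, 5.69 and 14.9 CPM after ABT-737 (log2 -1.72 ± 0.58, edgeR adjusted p = 0.122) and was called without vehicle replicate 3 (adjusted p = 0.0116, at a background of 8.78%). Dusp1 stood at 162, 55.0 and 104 CPM (log2 1.38 ± 0.49, edgeR adjusted p = 0.149). Junb stood at 99.1, 49.3 and 69.3 CPM (log2 -0.76 ± 0.33, edgeR adjusted p = 0.255).

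**Figure D2:**
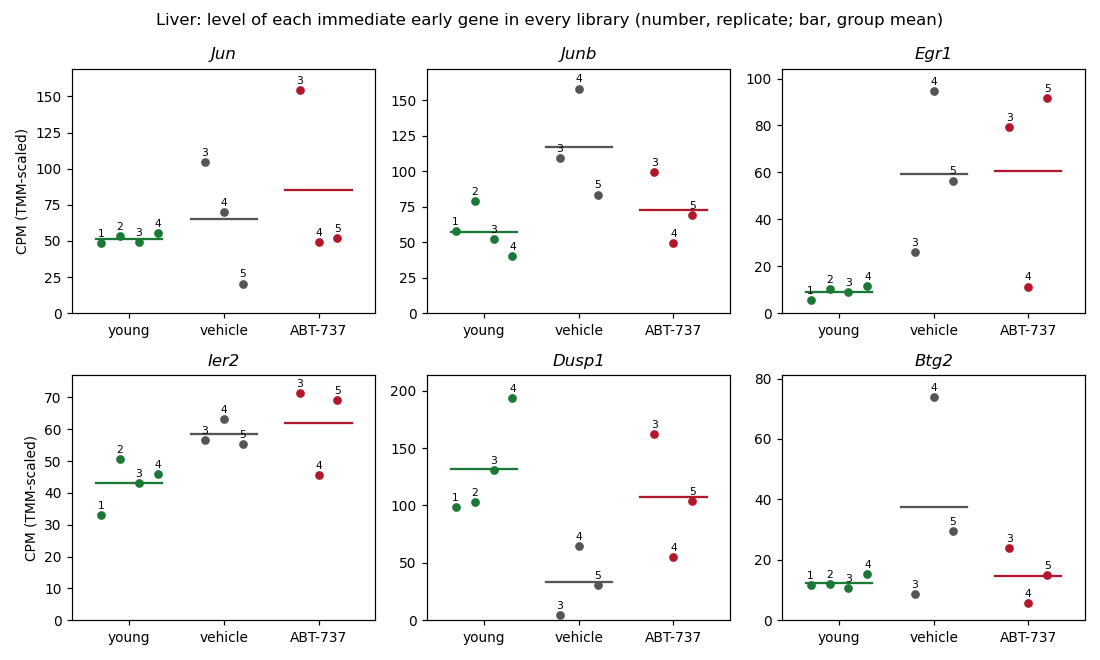
Level in CPM of the 6 tested immediate early genes in each liver library, with the replicate number at each point and a bar at the group mean. Vehicle points lie above all young points for Egr1, Junb and Ier2 and below them for Dusp1, and ABT-737 replicate 4 is the lowest of its group in all 6 panels.

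In kidney Nr4a1 was the only 1 of 8 tested genes called between vehicle and young mice, at a background of 13.3% of 11123 genes, although all 8 log2 differences were above 0, with a median of 0.41 against 0.01 for all genes. Without vehicle replicate 4 those of Fos and Btg2 fell below 0 (log2 -0.51 and -0.17). Nr4a1 was at 10.3, 13.2, 7.03 and 5.08 CPM in young kidneys and at 15.3, 36.3 and 19.7 CPM in vehicle kidneys, with no overlap (log2 1.32 ± 0.34, edgeR adjusted p = 0.0164). The call was lost without vehicle replicate 4 (log2 0.93, adjusted p = 0.11) or young replicate 3 (adjusted p = 0.0576). Junb, at 33.1 to 42.0 CPM in young and 50.3 to 60.9 CPM in vehicle kidneys, did not overlap either and just missed the threshold (log2 0.50 ± 0.16, edgeR adjusted p = 0.0533), and it passed without ABT-737 replicate 4 (0.0371) or 5 (0.0478), at backgrounds of 16.4% and 13.6%. These libraries enter only through the shared estimate of spread. Fos was at 2.35 to 12.3 CPM in vehicle kidneys, on 5 to 18 counts, and at 2.31 to 4.68 CPM in young ones.

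With ABT-737, Dusp1 was the member that stood out in kidney. Its levels were 114, 94.0 and 169 CPM after ABT-737, 85.6, 78.7 and 49.8 CPM after vehicle, and 76.3, 44.4, 55.3 and 78.9 CPM in young mice. All treated kidneys lay above all others. Dusp1 was called against young mice (log2 0.99 ± 0.24, edgeR adjusted p = 0.0395), the only 1 of 8 at a background of 2.12%, but not without ABT-737 replicate 3 or 5 or any of the 4 young libraries (adjusted p = 0.0533 to 0.124). Against vehicle none of the 8 was called by edgeR or DESeq2, at a background of 1.35%, and Dusp1 alone had an unadjusted p under 0.05 (log2 0.82 ± 0.26, edgeR adjusted p = 0.136). Fos stood at 11.3, 3.46 and 13.5 CPM and Egr1 at 24.7, 10.9 and 33.2 CPM after ABT-737, with replicate 4 lowest for both.

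In lung the log2 differences with age were above 0 for 5 members and below 0 for 4. Atf3 was the only 1 of 9 tested genes called between vehicle and young mice, at a background of 12.9% of 11949 genes. The young lungs were close together at 8.34, 8.34, 8.68 and 8.32 CPM, while the vehicle lungs reached 23.5, 14.2 and 43.8 CPM, all above the young (log2 1.69 ± 0.38, edgeR adjusted p = 0.0113). The highest of them, replicate 5, was the library with the most leukocyte markers, and without it the difference was 1.14 (adjusted p = 0.102).

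Dusp1 and Jun were lower in the old lungs on average, short of the threshold. Dusp1 stood at 364, 305, 296 and 494 CPM in young lungs and at 106, 315 and 65.8 CPM in vehicle lungs. Vehicle replicate 4 lay within the young range, and without it the log2 difference of -1.17 ± 0.45 became -2.10 and was called (adjusted p = 0.0969 with and 0.0031 without it, edgeR, at a background of 19.6% without it). Jun stood at 296 to 327 CPM in young lungs and at 224, 242 and 135 CPM in vehicle lungs, which did not overlap (log2 -0.64 ± 0.29, edgeR adjusted p = 0.162).

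ABT-737-treated lungs had more Fos and Jun than vehicle lungs in replicates 3 and 5. Fos was at 61.2, 27.4 and 75.6 CPM after ABT-737 and at 21.5, 27.9 and 19.1 CPM after vehicle, where replicate 4 of each group met. Jun was at 501, 257 and 422 CPM against 224, 242 and 135 CPM and did not overlap. The log2 differences were 1.28 ± 0.41 for Fos and 0.98 ± 0.31 for Jun (edgeR adjusted p = 0.159 and 0.162). None of the 9 genes was called between ABT-737 and vehicle lungs by edgeR, at a background of 0% of all genes, with 4 members and 1919 genes at an unadjusted p under 0.05. DESeq2 called Jun (adjusted p = 0.0492) among 342 genes, or 2.86%.

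Without ABT-737 replicate 4, the lung library with the adipocyte markers, edgeR called Fos (log2 1.57, adjusted p = 0.0236) and Jun (log2 1.20, adjusted p = 0.0308) against vehicle and Fos and Egr1 against young mice (adjusted p = 0.0258 and 0.0157). It then called 676 genes (5.42%) against vehicle and 1399 (11.2%) against young mice. Deviations from the group means correlated weakly between vehicle and ABT-737 lungs of the same number (r = 0.17 to 0.42), and other numbers were not compared. With the number as a block 99 genes were called between these groups, but no member. Junb, without overlap, and Atf3 had lower means after ABT-737 than after vehicle (log2 -0.84 ± 0.31 and -0.999 ± 0.40, edgeR adjusted p = 0.205 and 0.245). With all libraries none of the 9 was called between ABT-737 and young lungs by edgeR or DESeq2, at a background of 2.55%, with Fos alone at an unadjusted p under 0.05.

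Whether the age difference varied between kidney, liver and lung was tested in 1 model of all 30 libraries. Nr4a1 and Egr1 were called among 9 members, at a background of 13.9% of 13107 genes. For Nr4a1 the log2 difference was 1.32 in kidney and -0.51 in lung. Its liver libraries, too low to be tested alone, entered this test as well. They had means of 16.7 CPM in vehicle livers, on 4 to 17 counts, and 4.28 CPM in young livers, on 0 to 5. The call of Nr4a1 (edgeR adjusted p = 0.0120) held in each of the 34 alternatives. For Egr1 the log2 difference was 2.78 in liver, 0.60 in kidney and 0.18 in lung. Its call (edgeR adjusted p = 0.0433) was lost in 18 of 34 alternatives, with the highest adjusted p, 0.185, without liver vehicle replicate 4. The difference between ABT-737 and vehicle varied between tissues for none of the 9 members, at a background of 0.0992%, by edgeR or by DESeq2's likelihood ratio test, and Btg2 alone had an unadjusted p under 0.05 (0.0127).

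In skin the span from the lowest to the highest library was widest within the ABT-737 group for most members. Dusp1, Btg2, Egr1, Jun and Junb spanned more within a liver group than within any skin group, up to 14.8-fold for Dusp1 in vehicle livers. Vehicle and young skins varied too, with spans of 9.18-fold and 5.86-fold for Fosb. Jun spanned most in vehicle skins and Ier2 in young ones. After ABT-737, Fos reached 675 CPM in replicate 3, 71.7 CPM in replicate 4 and 745 CPM in replicate 5, from 2600, 183 and 2444 counts. The vehicle skins held 138, 263 and 59.3 CPM of Fos and the young skins 114, 284 and 161 CPM. Replicates 3 and 5 lay above all other skins, and replicate 4 lay near the lowest of them. The same was true of replicates 3 and 5 for each of the 10 members. Fosb, whose protein pairs with Jun proteins as Fos does, was at 259, 6.27 and 249.6 CPM after ABT-737, a span of 41.4-fold, and at 28.6, 86.1 and 9.38 CPM after vehicle.

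Atf3 stood at 177, 19.6 and 207 CPM, Egr1 at 476, 136 and 515 CPM, and Nr4a1 at 205, 32.1 and 253 CPM in the ABT-737 skins. Vehicle skins held 21.0 to 52.3 CPM of Atf3, 57.9 to 212 CPM of Egr1 and 60.1 to 81.1 CPM of Nr4a1. Dusp1 had the same shape, at 447, 86.6 and 522 CPM after ABT-737 against 139.7, 351 and 125 CPM after vehicle. Spans within the ABT-737 group were 10.6-fold for Atf3, 7.88-fold for Nr4a1 and 6.03-fold for Dusp1.

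Ier2 and Btg2 were the 2 members whose ABT-737 and vehicle skins did not overlap. The share of all genes without overlap was not counted, so this number has no background. Ier2 was at 185, 115 and 222 CPM after ABT-737 and at 95.4, 105 and 104 CPM after vehicle (log2 0.78 ± 0.30, edgeR adjusted p = 0.576). Btg2 was at 77.3, 64.2 and 149.9 CPM against 38.2, 64.1 and 45.8 CPM, where the nearest 2 libraries almost met (log2 0.98 ± 0.34, edgeR adjusted p = 0.519). Jun, at 281, 149.6 and 244 CPM, and Junb, at 370.3, 281 and 541 CPM, had narrower spans after ABT-737.

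All 10 members had a log2 difference above 0 between ABT-737 and vehicle skins, with a median of 1.12 against 0.04 for all 14224 genes tested, and none was called by edgeR or DESeq2, at a background of 0%. Of the members 4 had an unadjusted p under 0.05, as had 1134 of all genes, and DESeq2 called 60 genes. The largest log2 differences were 2.06 ± 1.16 for Fosb, 1.98 ± 0.69 for Atf3 and 1.70 ± 0.79 for Fos (edgeR adjusted p = 0.709, 0.527 and 0.642). Their intervals of 2 SE ran from -0.25 to 4.37, 0.60 to 3.36 and 0.11 to 3.28. Leaving out ABT-737 replicate 4 raised the members' median to 1.49, and leaving out replicate 5 lowered it to 0.69, with no member called in either case.

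Against young skins the 10 log2 differences of the ABT-737 group were again above 0, with a median of 1.10, and none was called by edgeR, at a background of 5.17%. Junb, at 143 to 237 CPM in young skins, did not overlap (log2 1.06 ± 0.29, edgeR adjusted p = 0.0646). Atf3 was at 21.0 to 30.5 CPM in young skins (log2 2.44 ± 0.72, edgeR adjusted p = 0.0739). DESeq2 called 4 members, namely Atf3, Btg2, Egr1 and Junb, among 2116 genes (14.9%). An unadjusted p under 0.05 by edgeR was found for 5 members and for 4271 genes (30%). Without ABT-737 replicate 4 Atf3 was called (adjusted p = 0.0387), at a background of 0.415%, and without replicate 3 Btg2 and Junb were (0.0393 and 0.0430), at a background of 19.6%.

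Vehicle and young skins differed in no member, at a background of 11.2%, and no member had an unadjusted p under 0.05 or was called by DESeq2. The signs were even, with 5 genes above and 5 below 0. Nr4a1 had the largest difference, at 145, 178 and 142 CPM in young and 63.3, 81.1 and 60.1 CPM in vehicle skins, without overlap (log2 -1.19 ± 0.57, edgeR adjusted p = 0.186). It was called when ABT-737 replicate 4 was left out of the shared fit (log2 -1.18, adjusted p = 0.0186, at a background of 10.6%).

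**Figure D3:**
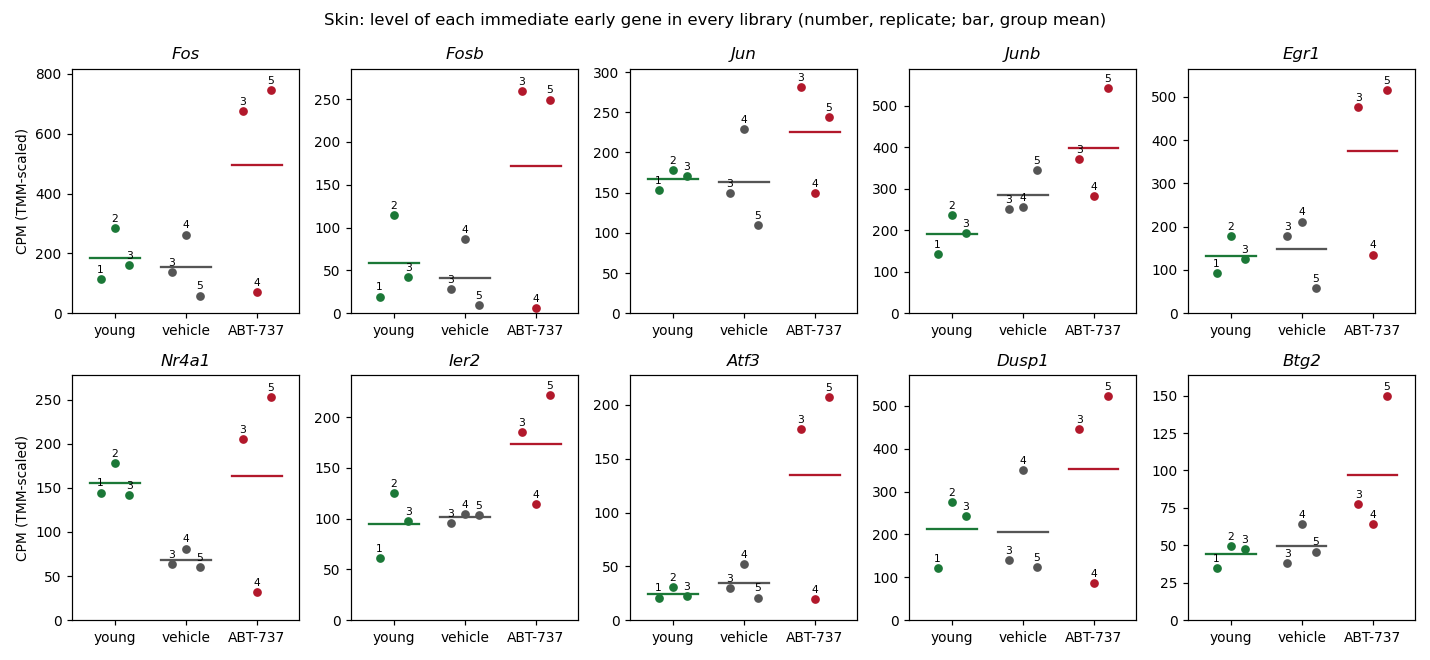
Level in CPM of all 10 immediate early genes in each skin library, with the replicate number at each point and a bar at the group mean. ABT-737 replicates 3 and 5 lie above all other libraries in all 10 panels, while ABT-737 replicate 4 lies at the bottom of its group in each.

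**Figure D4:**
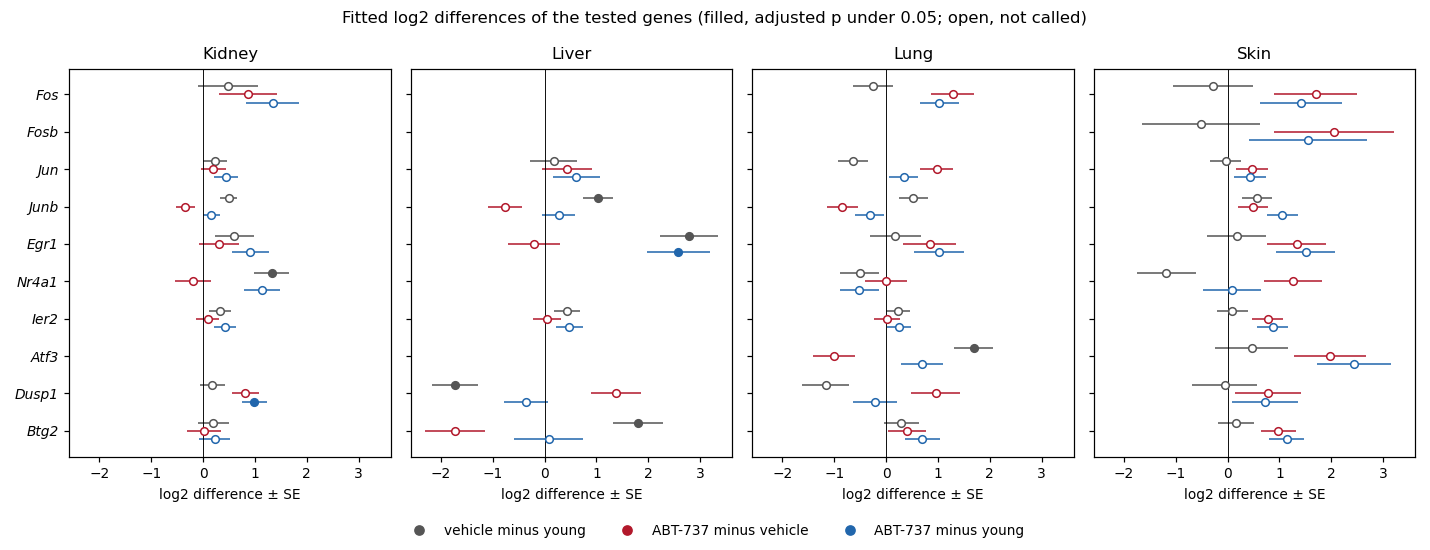
Fitted log2 differences with SE for each tested member in the 3 comparisons of each tissue. Filled points passed an adjusted p under 0.05 and open points did not, and no ABT-737 minus vehicle point is filled.

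Single libraries held many of the extreme values. ABT-737 replicate 4 was the lowest of its 3 libraries for 10 of 10 members in skin, 6 of 6 in liver, 7 of 8 in kidney and 6 of 9 in lung. Over all tested genes it was the lowest for 35.9%, 31.1%, 36.2% and 37.9%. Vehicle replicate 4 was the highest of its group for 9 of 10 members in skin, 5 of 6 in liver, 7 of 8 in kidney and 4 of 9 in lung, against 34.7%, 34.3%, 36.1% and 36.3% of all genes. In lung vehicle replicate 5 was the highest for 4 of 9 members too, and the lowest for 5. The untreated young skins had such an order as well. Young skin replicate 2 was the highest for 10 of 10 members, against 30.4% of all genes. Young skin replicate 1 was the lowest for 9 of 10, against 38.9%. Members of 1 library share its RNA and depth, so these counts are not independent observations, and each stands for 1 library.

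The 50 other early response genes listed further on followed these libraries in part. Of those tested, ABT-737 replicate 4 was the lowest for 23 of 46 in skin, 23 of 43 in lung and 20 of 40 in kidney, but in liver for 6 of 21 and the highest for 6. Vehicle replicate 4 was the highest for 19 of 21 in liver, 24 of 40 in kidney and 18 of 43 in lung, and in skin the highest for 18 of 46 and the lowest for 20. Summed heat shock genes were lowest in ABT-737 replicate 4 of the group in each tissue, at 4240 CPM in kidney against 6248 and 5065 CPM, 2640 against 3686 and 2993 CPM in liver, 3186 against 4633 and 4009 CPM in lung, and 3880 against 4252 and 3903 CPM in skin. Fibroblast markers in skin were at 3149 CPM in that replicate against 11937 and 8471 CPM, and leukocyte markers at 392 CPM against 786 and 873 CPM. Glucocorticoid targets were at 13942 CPM in liver vehicle replicate 4 against 2282 and 4494 CPM, and were highest in vehicle replicate 4 of the other tissues too, at 3082 CPM in kidney, 3545 CPM in lung and 5266 CPM in skin. The part of these in the members' levels was not tested.

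**Figure D5:**
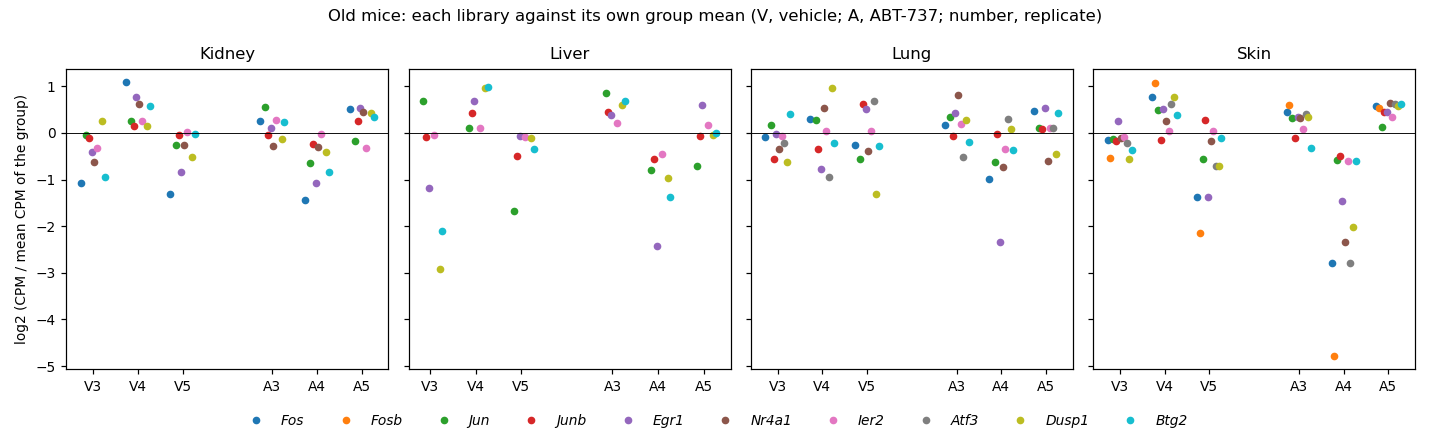
Level of each tested member in the vehicle (V) and ABT-737 (A) libraries as log2 of its CPM over the mean CPM of its own group, in the 4 tissues. Points of ABT-737 replicate 4 fall below 0 for every member in kidney, liver and skin, with Fosb in skin nearest the bottom of the axis.

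Most members varied more between libraries of 1 group than the median gene. The median biological coefficient of variation of the members was 49.9% in skin, 36.8% in liver, 33.1% in lung and 23.1% in kidney, against 27.0%, 19.9%, 29.4% and 15.4% for all genes tested. Fos in kidney, at 40.4%, exceeded 99.5% of genes, Egr1 in liver, at 43.5%, exceeded 98.6%, and Fosb in skin, at 90.2%, exceeded 98.4%. Ier2 was steadier. The coefficient of Ier2 was 14.5% in liver, 22.2% in lung, 15.6% in kidney and 29.96% in skin, and in liver and lung it lay below that of most genes.

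Pairs of members mostly correlated once group means were removed. In skin all 45 pairs had a Pearson r above 0, with a median of 0.79 over 9 libraries, and Fos with Fosb had the highest. In kidney 26 of 28 pairs and in liver 14 of 15 were above 0, with medians of 0.51 and 0.52 over 10 libraries. In lung only 23 of 36 were, with a median of 0.19, and Atf3 ran against Dusp1 (r = -0.85) and Jun (r = -0.84). These values describe libraries that share depth and makeup and carry no test. Among genes of at least 10 CPM, those most like the mean of the members in skin were Arfgap2, Gm27935, Cyr61, Zfp36 and Arhgap21 (r = 0.95, 0.95, 0.95, 0.95 and 0.94 over 9 libraries), of which Cyr61, a secreted matrix protein, and Zfp36, an mRNA-destabilising protein, are themselves early response genes. The median r of the 41 other early response genes among these candidates in skin was 0.18, against 0.03 for all candidates, and none of the 5 genes named for each other tissue was on that list. In kidney they were C2, Myo1e, Pmm1, Gsdmd and Afap1 (r = 0.96 to 0.98), in liver Usp8, Alkbh3, Smurf1, Stat3 and Pnpla2 (0.91 to 0.95), and in lung Elf2, Kat6b, Tcea1, Clasp1 and Fam178a (0.93 to 0.95), over 10 libraries each. The candidates numbered 10663 in skin, 8850 in kidney, 5572 in liver and 9723 in lung. Among so many genes and over so few libraries, high top values can arise by chance, and none was tested.

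A wider list of 50 other early response genes gave the setting. Between vehicle and young mice, skin had 4 higher and 0 lower of 46 tested, lung 7 and 3 of 43, kidney 8 and 2 of 40, and liver 6 and 3 of 21. Medians were 0.21, -0.13, 0.35 and 0.32 (log2), against 0.05, 0.04, 0.01 and 0.02 for all genes. In kidney Dusp2, a nuclear MAP kinase phosphatase (log2 2.02), Socs3, an inhibitor of cytokine signalling (1.97), and Pim1, a kinase (1.74), rose most, Klf6 (0.84) rose least, and Id1 (-0.66) and Errfi1, an inhibitor of EGF receptors (-0.76), fell.

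In liver the genes of that list that rose most were Klf6 (log2 2.63), Pim1 (1.504) and Cebpd (1.425), and Klf10 (-2.66), Errfi1 (-1.87) and Zfp36 (-1.24) fell. In lung Dusp2 (3.43), Rgs1 (3.20) and Socs3 (2.34) rose most and Gadd45b (-0.86), Ppp1r15a (-0.83) and Jund (-0.82) fell. In skin Dusp5 (2.04), Egr3 (1.70), Ier5 (1.48) and Egr2 (1.23) rose. Between ABT-737 and vehicle the list gave 1 call in all, a lower Socs3 in liver (log2 -2.0, edgeR adjusted p = 0.0388).

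Markers of cell types and the clock differed between the same groups. Leukocyte markers were higher in vehicle than in young mice, with 11 of 12 tested called in skin, 12 of 16 in lung, 14 of 14 in kidney and 8 of 8 in liver, and were lower after ABT-737 with 8 of 14 called in kidney and 8 of 8 in liver. Blood markers, the globins and Alas2, were higher in vehicle than in young mice as well, with 5 of 5 called in skin, 4 of 7 in lung, 7 of 7 in kidney and 6 of 7 in liver (median log2 3.75, 2.62, 2.40 and 2.46). Endothelial markers were called higher for 4 of 8 in skin, 3 of 8 in kidney, 2 of 2 in liver and 0 of 8 in lung by edgeR. Genes of the circadian clock were called in both directions between vehicle and young mice, 2 higher and 6 lower of 16 in skin, 3 and 7 of 17 in lung, 5 and 6 of 16 in kidney, and 3 and 2 of 9 in liver. In kidney the lowest were Ciart (log2 -4.17), Dbp, a clock output factor (-3.93), and Nr1d1, a clock repressor (-3.20), and the highest were Arntl, the core activator (2.86), its relative Npas2 (2.84) and Cry1, a repressor (2.26). None of the clock genes was called by edgeR between ABT-737 and vehicle mice in any tissue. The part of leukocytes, blood, endothelium and the clock in the members' age differences was not tested.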

How the data were processed

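Per the labels and the study's methods, RNA of whole tissue was made into 3′ end libraries by a bulk form of MARS-seq and sequenced on a NextSeq-500. The authors deposited raw counts, which are whole numbers, in 1 table for kidney, liver and lung (RefSeq transcripts) and another for skin (Ensembl transcripts). The submitters' processing notes name bcl2fastq, HISAT 0.1.5, HOMER and the build mm10. Collapsing of molecule barcodes and use of strand were not given in the sources used here, so Junb and Dusp1, which overlap Prdx2 and Ergic1 on the opposite strand, and Jun, which overlaps Junos, may hold reads of those genes. ABT-738 or ABT-739 stands in the treatment labels of 8 of the 12 treated libraries, and those libraries were assigned to ABT-737 from their titles.

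The test was edgeR 4.0.16 under R 4.3.3: filterByExpr, TMM and the quasi-likelihood test across all genes of each tissue, with 3 groups in the fit, and Benjamini-Hochberg adjusted p under 0.05 as a call. SE is the log2 difference over the square root of F, and intervals are 2 SE wide on each side. The 12 young libraries, and all 30 of the first table for the test between tissues, were fitted together. The skin table was fitted apart. The steps were tested on simulated data. The alternatives were DESeq2 1.42.0, its size factors in edgeR, no filter beyond a summed count of 1, the replicate number as a block, the 2 compared groups fitted alone, a minimum of 10 counts in each library, each library left out and, for young tissues, total counts alone. A group with at most 3 counts in every library was taken at that limit, which covers counting error only.

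Same-numbered vehicle and ABT-737 libraries correlated in their deviations from the group means in lung (r = 0.17, 0.29 and 0.42) but not in every pair elsewhere. Libraries of different numbers were not correlated, so these values have no reference and a pairing was not shown in any tissue. Whether replicates were separate mice is not stated for each library, and p-values measure the spread between these libraries. The members, the lists, written from general knowledge, and the tests were chosen with earlier results of these data known. All 10 members were described. Genes of other lists were named only where called, and where more than 6 of a list were called, the 3 highest and 3 lowest log2 differences were taken. In each tissue the 5 genes of at least 10 CPM most like the members' mean were named too.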

Additional observations from a re-analysis of the deposited data

Results flagged for a closer look

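Among 23 groups of 4 young libraries with a tested member, 2 held 1 library far from the others, where chance flags about 1 in 20. Egr1 in young lung replicate 4 was at 21.8 CPM against 13.7 to 14.7 CPM in the other 3. Atf3 in young lung replicate 3 was at 8.68 CPM against 8.32 to 8.34 CPM, a gap that was wide only beside the closeness of the others. The age difference varied between kidney, liver and lung for Egr1 (adjusted p = 0.0433, edgeR's test of the difference itself) and for Nr4a1 (adjusted p = 0.0120).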

How the results depend on the processing

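Of 126 comparisons of members, 26 were called. Between young tissues 16 of 18 calls held in each alternative that could be run, but 7 of these 16 could not be tested with at least 10 counts in every library. Within a tissue 0 of 8 calls held in every alternative. None of the 26 changed sign. The depth of the liver limits it most: 4 members could not be tested there. With no filter on low counts the members called became 1 in kidney and 2 in liver between ABT-737 and vehicle, 2 in kidney and 4 in skin between ABT-737 and young, where all had fewer in the filtered fit. Calls over all genes rose too, from 150 to 368 in kidney and 215 to 512 in liver between ABT-737 and vehicle. In kidney between ABT-737 and young they rose from 236 to 452. With at least 10 counts in every library the members called became 1 in liver between vehicle and young and 0 in liver between ABT-737 and young. They became 4 between young lung and kidney, 3 between young lung and liver, and 0 for the age difference between tissues. Fewer members were tested in each of these. In the last 3 comparisons calls over all genes fell too, from 8866 to 2820, from 8235 to 2717 and from 1824 to 479. In skin all 10 members were still tested, and 1 was called between ABT-737 and young. With only the compared groups the members called became 2 in kidney and 1 in skin between vehicle and young. They became 0 in liver between ABT-737 and young, where Egr1 no longer passed the filter and was not tested. Calls over all genes rose from 1474 to 1858 in that kidney comparison and from 469 to 1102 in that liver comparison. DESeq2 gave 2 in lung between vehicle and young, 1 in lung between ABT-737 and vehicle, and 4 in skin between ABT-737 and young, and its size factors in edgeR gave 1 for the age difference between tissues. The cause of the other changes was not tested.

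With the replicate number as a block the members called became 0 in kidney between ABT-737 and young, 0 in liver and 0 in lung between vehicle and young, and 0 in liver between ABT-737 and young. Calls over all genes fell as well, in the same order from 236 to 33, 1261 to 291, 1539 to 333 and 469 to 39. Libraries of different groups are known to share only a number, and the block changed no member's call between ABT-737 and vehicle lungs.

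With each library left out in turn, the members called ranged from 0 to 2 in kidney, 2 to 5 in liver, 0 to 2 in lung and 0 to 1 in skin between vehicle and young. Calls over all genes ranged from 842 to 1885, 859 to 1486, 502 to 2426 and 39 to 2459 in the same order. The members called ranged from 0 to 0 in kidney, 0 to 1 in liver, 0 to 2 in lung and 0 to 0 in skin between ABT-737 and vehicle, and from 0 to 1 in kidney, 0 to 1 in liver, 0 to 2 in lung and 0 to 2 in skin between ABT-737 and young. Calls over all genes ranged from 57 to 471, 44 to 529, 0 to 676 and 0 to 0 against vehicle. Against young mice they ranged from 107 to 308, 197 to 964, 1 to 1399 and 3 to 2875. In young tissues the members called ranged from 4 to 5 between liver and kidney, 8 to 8 between lung and kidney and 5 to 6 between lung and liver, and between tissues from 1 to 3 for the age difference and 0 to 0 for the drug difference. Calls over all genes ranged from 5605 to 6284, 8689 to 9152, 7974 to 8406, 1049 to 2517 and 0 to 135 in the same order.

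Log2 differences of 34 comparisons, none of them called, changed sign in some alternative, 5 between young tissues and 29 within a tissue. With 1 library left out, the ranges that crossed 0 were as follows. Between young tissues, for lung minus liver, they were -0.0104 to 0.72 for Atf3, -0.17 to 0.11 for Egr1 and -0.20 to 0.0085 for Ier2. In kidney, for ABT-737 minus vehicle, they were -0.32 to 0.39 for Btg2, -0.054 to 0.84 for Egr1, -0.066 to 0.22 for Ier2, -0.19 to 0.44 for Jun and -0.48 to 0.20 for Nr4a1. In kidney, for vehicle minus young, they were -0.17 to 0.54 for Btg2 and -0.51 to 0.86 for Fos. In liver, for ABT-737 minus young, they were -0.32 to 0.58 for Btg2, -0.73 to 0.0015 for Dusp1 and -0.0201 to 0.93 for Jun. In skin, for vehicle minus young, they were -0.0801 to 0.30 for Btg2, -0.70 to 0.20 for Dusp1, -0.18 to 0.56 for Egr1, -0.94 to 0.15 for Fos, -1.67 to 0.41 for Fosb, -0.14 to 0.34 for Ier2 and -0.38 to 0.18 for Jun. Between young tissues, for liver minus kidney, they were -0.20 to 0.055 for Btg2. In liver, for ABT-737 minus vehicle, they were -0.78 to 0.42 for Egr1, -0.057 to 0.27 for Ier2 and -0.19 to 0.77 for Jun. In lung, for vehicle minus young, they were -0.20 to 0.45 for Egr1 and -0.44 to 0.12 for Fos. In lung, for ABT-737 minus vehicle, they were -0.084 to 0.15 for Ier2 and -0.68 to 0.36 for Nr4a1. In liver, for vehicle minus young, they were -0.17 to 0.67 for Jun. In skin, for ABT-737 minus young, they were -0.38 to 0.57 for Nr4a1.

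With the replicate block the sign turned to -0.024 for Btg2 (kidney, vehicle minus young), -0.0014 for Btg2 (kidney, ABT-737 minus young), -0.50 for Egr1 (lung, vehicle minus young), -0.17 for Btg2 (lung, vehicle minus young), 0.12 for Dusp1 (lung, ABT-737 minus young), 0.15 for Fos (skin, vehicle minus young), 0.033 for Jun (skin, vehicle minus young) and -0.27 for Btg2 (skin, vehicle minus young). With at least 10 counts in every library the sign turned to -0.062 for Ier2 (liver, ABT-737 minus vehicle), 0.0082 for Jun (skin, vehicle minus young) and 0.40 for Ier2 (between young tissues, lung minus liver). With no filter on low counts the sign turned to -0.013 for Ier2 (lung, ABT-737 minus vehicle) and -0.10 for Egr1 (between young tissues, lung minus liver). With DESeq2's own test the sign turned to 0.048 for Btg2 (between young tissues, liver minus kidney). With DESeq2 size factors in edgeR the sign turned to 0.044 for Btg2 (between young tissues, liver minus kidney). With total counts alone the sign turned to -0.42 for Egr1 (between young tissues, liver minus kidney) and 0.69 for Ier2 (between young tissues, lung minus liver). Between settings the count of all genes called differed by over 1.5 times in several comparisons, for instance 735 against 2116 by DESeq2 between ABT-737 and young skins and 0 with the block.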

Other observations

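Hspa1a and its near-identical copy Hspa1b, which encode inducible HSP70 and whose reads may be split between them, were lower in vehicle than in young kidneys (log2 -1.54 and -1.35, edgeR adjusted p = 0.000392 and 0.00297). Hmox1, which encodes the heme-degrading enzyme heme oxygenase 1, was higher in vehicle than in young livers (log2 2.94, adjusted p = 2.25e-05) and lower after ABT-737 than after vehicle (log2 -3.22, adjusted p = 0.000281). Phlda1, a target of ERK signalling, was lower in vehicle than in young livers (log2 -3.25, adjusted p = 0.00026) and higher in vehicle than in young skins (log2 1.86, adjusted p = 0.0112).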
